A study of Mus musculus with 2 samples.

Results

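The 10 genes described here encode the 4 Notch receptors (Notch1, Notch2, Notch3 and Notch4), the protease Adam10, the nuclear partners Rbpj and Maml1, and the target genes Hes1, Nrarp and Dtx1. They were chosen by name, with earlier results of these data known, out of 21887 protein-coding mouse genes in the RefSeq table. Every interval called in the Myc-Tag ChIP that overlapped the body of one of these genes, or the 50 kb on either side of it, was taken. This gave 19 of the 3477 Myc-Tag intervals.

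The series is a ChIP-seq experiment on the homeobox transcription factor Dlx5 in an Lck-Dlx5 T-cell lymphoma of the mouse. ChIP-seq isolates DNA fragments bound by a protein with an antibody and sequences them. The question was which genes Dlx5 binds in these tumor cells. A Myc-Tag antibody pulled down the tagged protein in one of the 2 samples, and the other is the input. With 1 library per group nothing here has a replicate check, and no test was made. Both carried the same transgene, Myc-Tagged Dlx5 driven by the Lck promoter, which is active in developing T cells. No sample without the transgene was analysed here. The labels give both samples as a primary tumor, with strain C57BL/6 for the ChIP and C57BL/7 for the input. The methods of the study instead name 1 lymphoma cell line and an IgG control, and the labels were followed here. RNA levels of the genes were not measured in these 2 libraries.

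Notch receptors are single-pass membrane proteins. When a ligand on a neighboring cell binds, Adam10 cuts the receptor outside the membrane and γ-secretase then cuts it within the membrane. The freed intracellular domain enters the nucleus, where it joins the DNA-binding protein Rbpj and a Mastermind protein such as Maml1 to activate targets such as Hes1, Nrarp and Dtx1. In the thymus this pathway commits progenitors to the T-cell lineage, and its activation is common in T-cell leukemia.

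The promoter windows of 6 members are shown because 4 of them held a Myc-Tag interval and the windows of Notch1 and Notch3 did not. Each runs from 250 bases before to 50 bases after the transcription start, 5′ to 3′ on the strand of the gene, in the RefSeq sequence of GRCm38.p6. Capitals mark ATTA or TAAT, the core that homeodomain proteins commonly recognize. Rbpj has 2 starts listed with such windows, both well inside its RefSeq gene body, and the window of the first of them is shown.
Notch2 promoter, chr3:98013288-98013587, plus strand: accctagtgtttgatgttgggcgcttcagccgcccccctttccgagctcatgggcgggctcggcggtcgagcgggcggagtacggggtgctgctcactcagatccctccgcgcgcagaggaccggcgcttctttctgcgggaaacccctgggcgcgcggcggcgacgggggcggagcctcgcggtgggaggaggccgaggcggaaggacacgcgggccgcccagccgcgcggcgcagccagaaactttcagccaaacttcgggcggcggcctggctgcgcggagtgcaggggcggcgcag
Rbpj promoter, chr5:53590096-53590395, plus strand: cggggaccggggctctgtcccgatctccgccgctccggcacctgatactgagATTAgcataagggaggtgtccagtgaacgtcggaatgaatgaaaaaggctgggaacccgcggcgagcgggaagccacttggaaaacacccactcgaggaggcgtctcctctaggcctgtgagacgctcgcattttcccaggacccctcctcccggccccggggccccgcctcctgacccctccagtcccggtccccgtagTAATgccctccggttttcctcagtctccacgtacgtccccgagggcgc
Nrarp promoter, chr2:25180508-25180807, plus strand: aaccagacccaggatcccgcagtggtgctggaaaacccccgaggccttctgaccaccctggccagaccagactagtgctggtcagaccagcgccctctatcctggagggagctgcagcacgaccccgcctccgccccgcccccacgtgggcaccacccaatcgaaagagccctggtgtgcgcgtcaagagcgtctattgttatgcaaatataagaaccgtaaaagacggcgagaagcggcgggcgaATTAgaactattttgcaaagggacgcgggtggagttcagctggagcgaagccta
Adam10 promoter, chr9:70678732-70679031, plus strand: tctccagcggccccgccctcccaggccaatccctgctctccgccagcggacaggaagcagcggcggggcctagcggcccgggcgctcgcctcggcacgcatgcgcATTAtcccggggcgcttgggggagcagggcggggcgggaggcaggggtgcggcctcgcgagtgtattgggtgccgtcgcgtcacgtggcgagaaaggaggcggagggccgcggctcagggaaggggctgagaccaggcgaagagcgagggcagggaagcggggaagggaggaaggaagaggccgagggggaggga
Notch1 promoter, chr2:26503773-26504072, minus strand: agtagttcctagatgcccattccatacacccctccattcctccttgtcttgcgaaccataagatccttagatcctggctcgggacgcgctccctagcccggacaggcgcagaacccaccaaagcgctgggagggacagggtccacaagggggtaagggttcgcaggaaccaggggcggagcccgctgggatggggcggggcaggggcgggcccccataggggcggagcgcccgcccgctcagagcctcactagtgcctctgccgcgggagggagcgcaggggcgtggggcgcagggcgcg
Notch3 promoter, chr17:32166841-32167140, minus strand: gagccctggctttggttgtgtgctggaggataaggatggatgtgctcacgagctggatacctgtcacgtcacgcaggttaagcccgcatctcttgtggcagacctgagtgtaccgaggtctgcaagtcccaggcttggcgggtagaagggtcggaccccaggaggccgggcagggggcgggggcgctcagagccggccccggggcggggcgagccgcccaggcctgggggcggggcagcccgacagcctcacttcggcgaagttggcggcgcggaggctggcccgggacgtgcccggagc

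The Notch2, Rbpj, Nrarp and Adam10 windows were overlapped by an interval over 300, 300, 284 and 229 of their 300 bases. The second Rbpj window was covered over all 300 bases. The Notch1 and Notch3 windows were covered over 0 bases, as were those of Notch4, Maml1 and Dtx1. Hes1 had no window in the table. Of all 32851 promoter windows, 7.25% were overlapped by a Myc-Tag interval.

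All 10 members had at least 1 interval within 50 kb, where 33.3% of all protein-coding genes did. The members were chosen with earlier results of these data known, and the study had reported Dlx5 binding at Notch1 and Notch3. The counts in this paragraph are thus a description and not a test of enrichment. Beside this ChIP-seq, the study gave ChIP-qPCR at elements near the end of Notch1 and in a Notch3 intron. It also gave reporter assays and chromosome conformation capture for those elements. Their positions were not mapped here. Of the members, 8 were between 20 and 150 kb long, and among all coding genes of that length the share was 36.6%. Fewer members had one in narrower windows. Within 10 kb, 7 members had an interval, against 19.0% of coding genes. Within 1 kb the count was again 7, against 14.2% of all coding genes and 17.8% of those between 20 and 150 kb. These 7 were Notch1, Notch2, Notch3, Adam10, Rbpj, Hes1 and Nrarp. They were also the 7 members that were the nearest coding gene to an interval, which 14.1% of coding genes were. The intervals near Notch4, Maml1 and Dtx1 all lay closer to a neighboring gene.

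**Figure D1:**
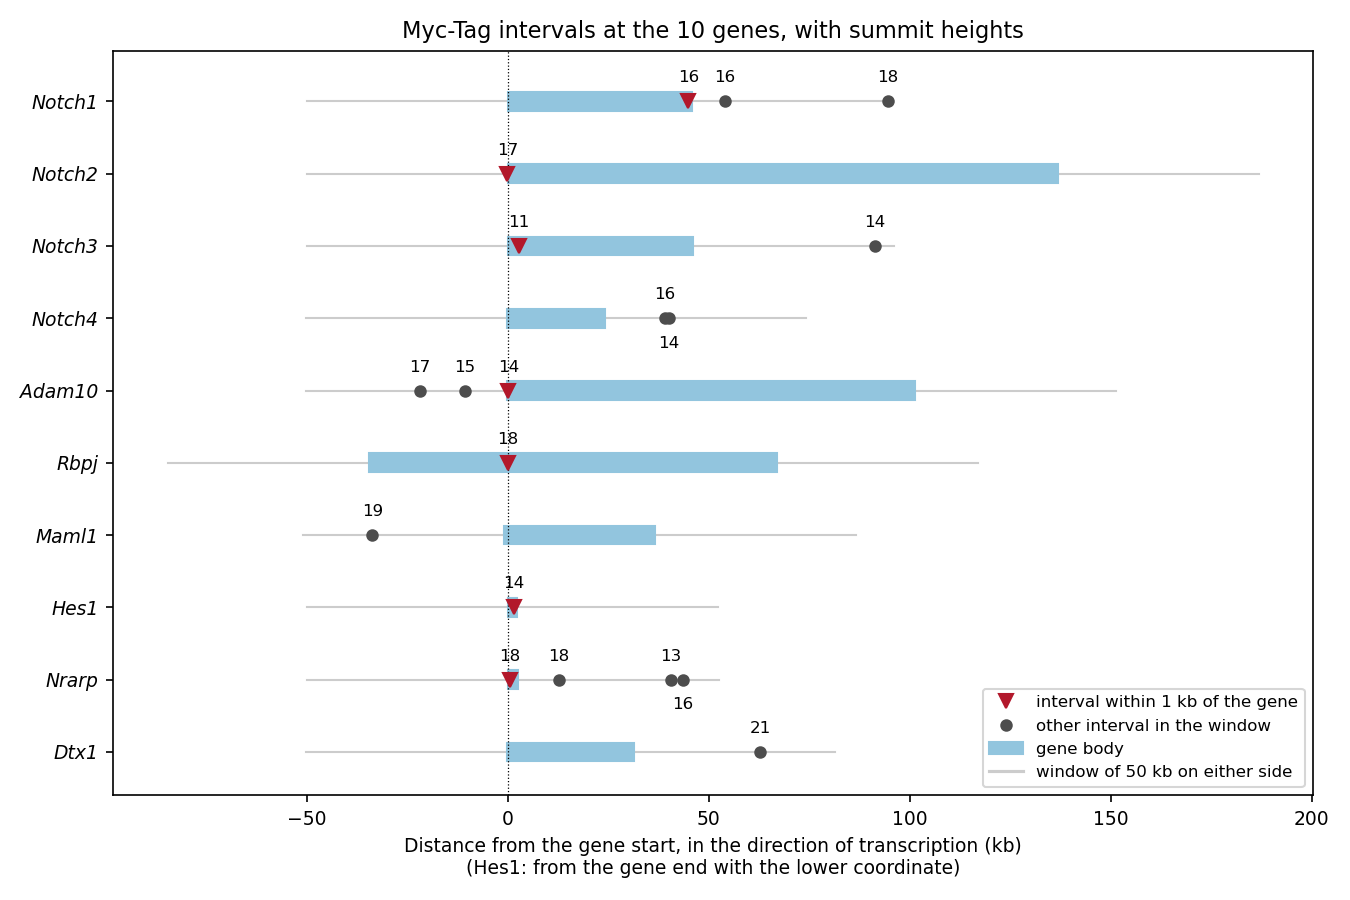
Myc-Tag intervals around each member, placed by distance in kb from the first listed start of the gene, along its strand. Gene bodies are drawn on the same kb scale. Hes1 had no listed start and was placed by an edge of its body instead. Of the 19 intervals, 7 overlapped or lay within 1 kb of the member and the other 12 lay closer to another coding gene.

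The value deposited with each interval is the height of its summit, a score whose normalization is not stated. Over all 3477 Myc-Tag summits the height ran from 9 to 301 with a median of 16. The 19 summits near members had heights of 11 to 21, also with a median of 16. The 7 intervals at the members themselves had heights of 11 to 18, and the 12 farther away had heights of 13 to 21. Of these 12, 9 overlapped another coding gene. Both groups had a median of 16, and their heights overlapped. A Myc-Tag interval was counted as called in the input only where an input interval had the same start and end. None of the 19 was called in this sense, and overlap with input intervals at other coordinates was not computed. With 0 of 19, a share of up to 15.8% is allowed by counting error alone. Over all Myc-Tag intervals 0.805% were called in the input. Every input-called interval had a Myc-Tag height of at least 21, and among the 2920 intervals of height 21 or less only 1 was called there, so nearly all intervals of like height lacked an input call too.

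Among the receptors, Notch1, the main receptor of early T-cell development, had 3 intervals. The closest, at chr2:26458145-26459167 with height 16, lay inside the gene, 914 bp from its 3′ end and 45006 bp downstream of the start. It also overlapped the long noncoding RNA gene 0610009E02Rik. The second, at chr2:26449361-26450145 with height 16, lay 8206 bp beyond the 3′ end, in the same noncoding gene, and was 3403 bp from Sec16a, which acts in export from the endoplasmic reticulum. The third, at chr2:26408831-26409488 with height 18, lay 48750 bp from Notch1. Its summit was 25 bp upstream of a start of Inpp5e, a phosphoinositide phosphatase, and it also overlapped Sec16a. No interval was called at the Notch1 start, at position 26503822.

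Notch2 had 1 interval, at chr3:98013145-98013922, with height 17 and a summit 66 bp upstream of its start. It was the only receptor with a summit within 1 kb of its own start.

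Notch3 had 2 intervals. The first, at chr17:32163812-32164823, lay inside the gene with its summit 2778 bp downstream of the start. Its height of 11 was the lowest of the 19, and 90.45% of all Myc-Tag summits were higher. It was nevertheless 1012 bp wide, and only 21.66% of intervals were wider. Of the 222 intervals of height 11, whose median width was 585 bp, 8 were at least that wide, a comparison chosen after its values were seen. The second, at chr17:32075119-32075622 with height 14, overlapped no gene. It lay 45396 bp from Notch3 and 12559 bp from Rrp1b, a nucleolar protein gene.

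Notch4, best known from blood vessel endothelium, had 2 intervals in its 50 kb window and none within 10 kb. They lay 14945 and 15809 bp from the gene, with heights of 16 and 14, in Rnf5, a ubiquitin ligase gene, and in Agpat1, an enzyme gene of phospholipid synthesis. That window held 9 other coding genes. No binding at Notch4 itself was detectable at this calling threshold.

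Adam10, the protease that makes the ligand-induced cut, had 3 intervals. The one at chr9:70678803-70679469, with height 14, had its summit 218 bp downstream of the start. Another, with height 17, had its summit 6 bp downstream of the start of Mindy2, a deubiquitinase gene, and lay 21776 bp from Adam10. The third, with height 15, lay 10624 bp from Adam10 in the long noncoding RNA gene Gm31872. At 326 bp it was the narrowest of the 19, and 99.71% of all intervals were wider.

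Of the nuclear partners, Rbpj had 1 interval, at chr5:53589745-53590833, with height 18. Its summit lay between the 2 starts listed with promoter windows, 54 bp downstream of one and 86 bp upstream of the other. The RefSeq gene body begins farther upstream, 34621 bp from the summit, and no interval was called there. At 1089 bp the Rbpj interval was the widest of the 19. Maml1 had no interval within 10 kb. The single one in its window, with height 19, lay 32821 bp away, and its summit was 279 bp upstream of the start of Canx, the gene of the chaperone calnexin. It also overlapped Gm46280.

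Of the targets, Hes1, a transcriptional repressor, had 1 interval, at chr16:30066526-30067419 with height 14, inside its short gene body of 2440 bp. No other coding gene fell in its window. Nrarp, a small protein that limits Notch signaling, had 4 intervals. The one at chr2:25180524-25181604, with height 18 and a width of 1081 bp, had its summit 490 bp downstream of the start. The other 3, with heights of 18, 13 and 16, lay 10197, 38101 and 41109 bp away, in Tor4a, Fam166a and Tubb4b. Dtx1, a ubiquitin ligase that modulates Notch, had no interval within 10 kb. The one in its window, with height 21, was the tallest of the 19. It lay 31403 bp away in Rasal1, a gene of a Ras inhibitor.

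Compared by role, intervals within 1 kb were called at 3 of 4 receptors, at the protease, at 1 of 2 nuclear partners and at 2 of 3 targets. Of all coding genes, 14.2% had one within 1 kb. No difference between roles was tested. The summit lay within 1 kb of a listed start of the member at Notch2, Rbpj, Nrarp and Adam10. At Notch1 and Notch3 it lay farther inside the gene, and the 2 differed, with the Notch1 summit near the 3′ end and the Notch3 summit nearer the start. Hes1 had no listed start, so its summit could not be placed this way. Over all 3477 Myc-Tag summits, 51.9% lay within 1 kb of a listed protein-coding start. That set was not limited to intervals at a gene, so it is not a like comparison with the intervals at members.

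The 7 intervals at the members had widths of 667 to 1089 bp with a median of 1012, and the 12 farther away had widths of 326 to 960 bp with a median of 644. The 2 ranges overlapped between 667 and 960 bp, and the difference was not tested. Of the 7, 6 were wider than the median of 752 bp over all intervals, and of the 12, 3 were. Over all intervals the same widths had medians of 818 bp where the summit lay within 1 kb of a coding start and 691 bp elsewhere. Neighboring genes also had intervals. Of the 32 other coding genes in the windows, 11 had an interval within 1 kb, or 34.4%, against 14.2% of all coding genes. Every window already held an interval, and 1 interval could count for 2 neighbors, so the 34.4% and the 14.2% are not a like comparison. Whether the calls at neighbors bear on the 7 members was not tested.

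**Figure D2:**
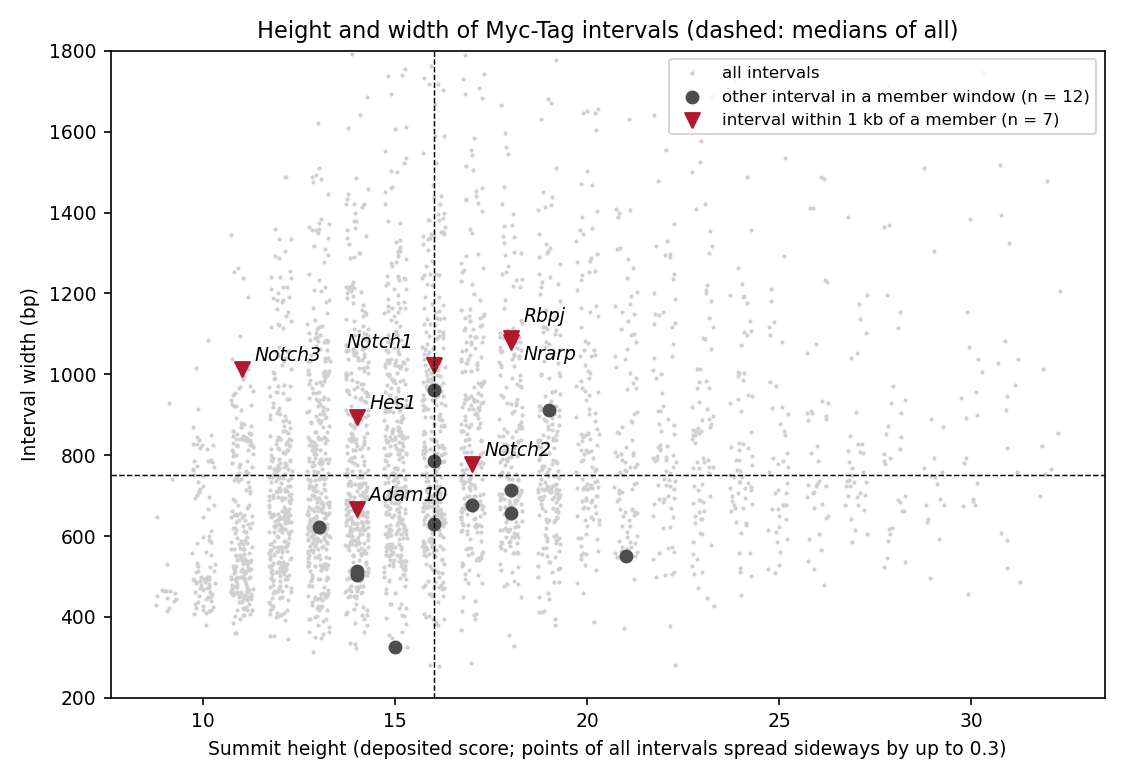
Summit height (score) against interval width (bp) for the 19 intervals near members, over all Myc-Tag intervals in grey. The 7 intervals at members reach a width of 1089 bp at heights no greater than 18. Beyond the axes, at heights over 32 or widths over 1800 bp, lie 151 of the 3477 intervals.

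The motif TAATT, which the study names for the Dlx family, was searched together with its reverse complement AATTA in the promoter windows. Among members it was found in the Nrarp window alone, where AATTA begins 5 bases before the start. Over all windows 27.0% held it, and among the 1649 windows lying wholly inside an interval 13.8% did. The windows inside an interval had a median of 64.0% G and C bases, against 52.7% over all windows. The shares with the motif were not matched for base composition, and its part in their difference was not tested. The study's own motif search (MEME) assigned most of the Dlx5 binding consensus to TAATT, and that search was not repeated here. The shorter ATTA, or TAAT on the other strand, overlaps TAATT. It was found in the windows of Adam10, Notch4, Nrarp and Rbpj, and 58.0% of all windows held it. The windows of Notch2, Notch1 and Notch3 held neither. These matches are letters in the window and not sites, and the bases of the intervals outside the windows were not read here.

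The windows under an interval were rich in CpG. Those of Notch2, Adam10, Rbpj and Nrarp held 41, 32, 26 and 21 CpG dinucleotides, and the second Rbpj window held 28. The uncovered windows of Dtx1, Notch3, Maml1 and Notch1 held 26, 25, 24 and 23, within the same range, and that of Notch4 held 5. The median was 7 over all windows and 26 over windows wholly inside an interval. Among all windows with at least 20 CpG, 19.6% were overlapped by a Myc-Tag interval. Among promoter windows, base composition moved with the calls, and its part in them was not tested. Sequence outside these windows was not read.

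**Figure D3:**
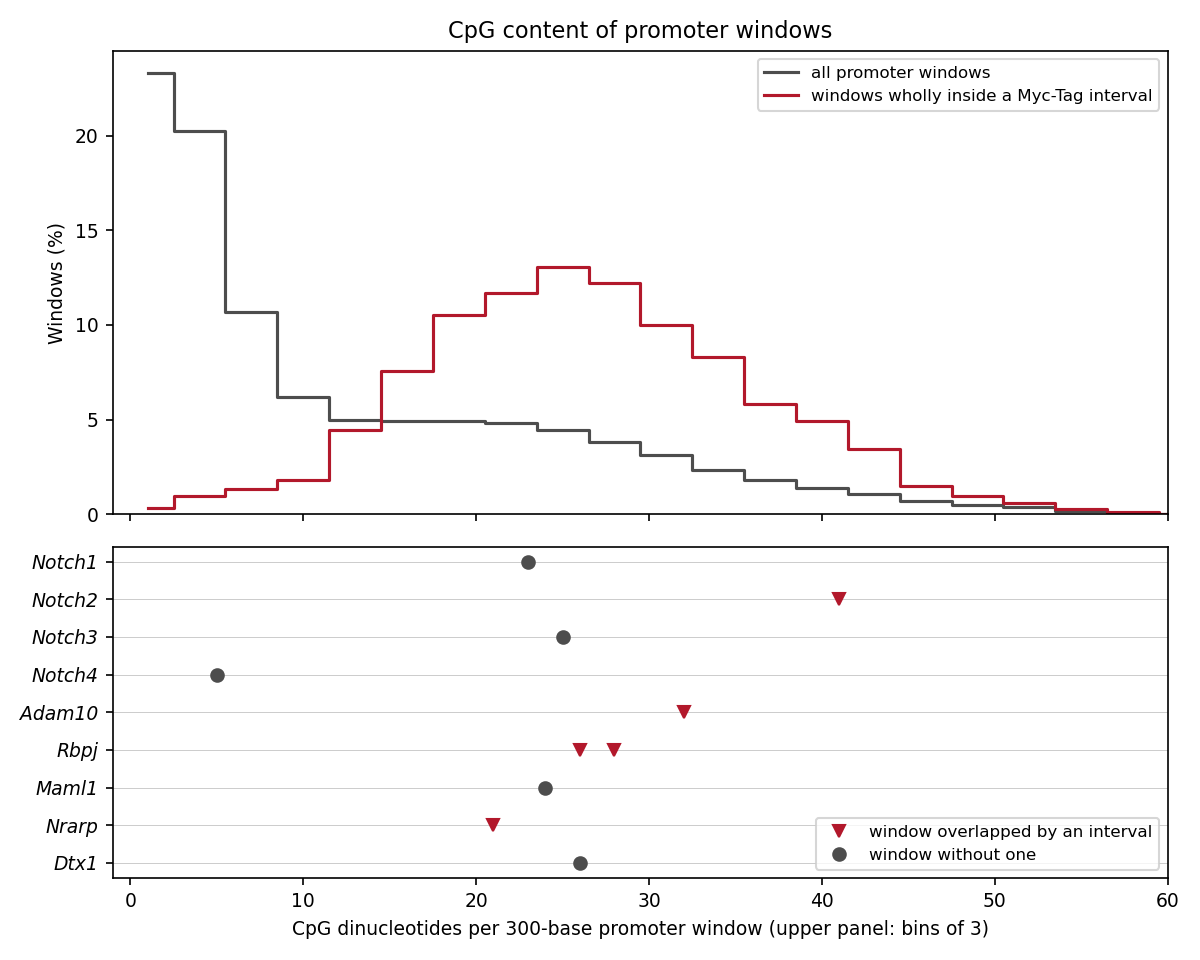
Upper panel: the share of promoter windows (%) by number of CpG dinucleotides, for all windows and for those wholly inside a Myc-Tag interval. Lower panel: the windows of 9 members, with triangles for the windows overlapped by an interval. Covered and uncovered member windows overlap between 21 and 26 CpG.

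A wider list of 66 Notch pathway genes, the members included, was counted the same way. The list was fixed with earlier results of these data known. Its genes had a median length of 29109.5 bp, against 17169 bp over all coding genes, and the shares were not matched for length. They are a description and not a test of enrichment. Within 50 kb, 40 of the 66 had an interval (60.6%, Wilson 95% interval 48.55 to 71.5%, which covers counting error only). Within 1 kb, 16 did (24.2%, 15.51 to 35.81%). Without the 10 members, 30 of 56 had an interval within 50 kb (53.6%, 40.7 to 65.98%), and the background there was 33.3%. Of the 56, 9 had an interval within 1 kb (16.1%, 8.69 to 27.81%), a range that holds the background of 14.2%. By role, intervals within 1 kb were called at 0 of 5 ligands, 3 of 4 receptors, 3 of 10 processing genes, 0 of 5 glycosylation genes, 4 of 9 nuclear coactivators, 2 of 10 corepressors, 1 of 12 regulators and 3 of 11 targets. Each role held only 4 to 12 genes, and no difference between roles was tested.

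**Figure D4:**
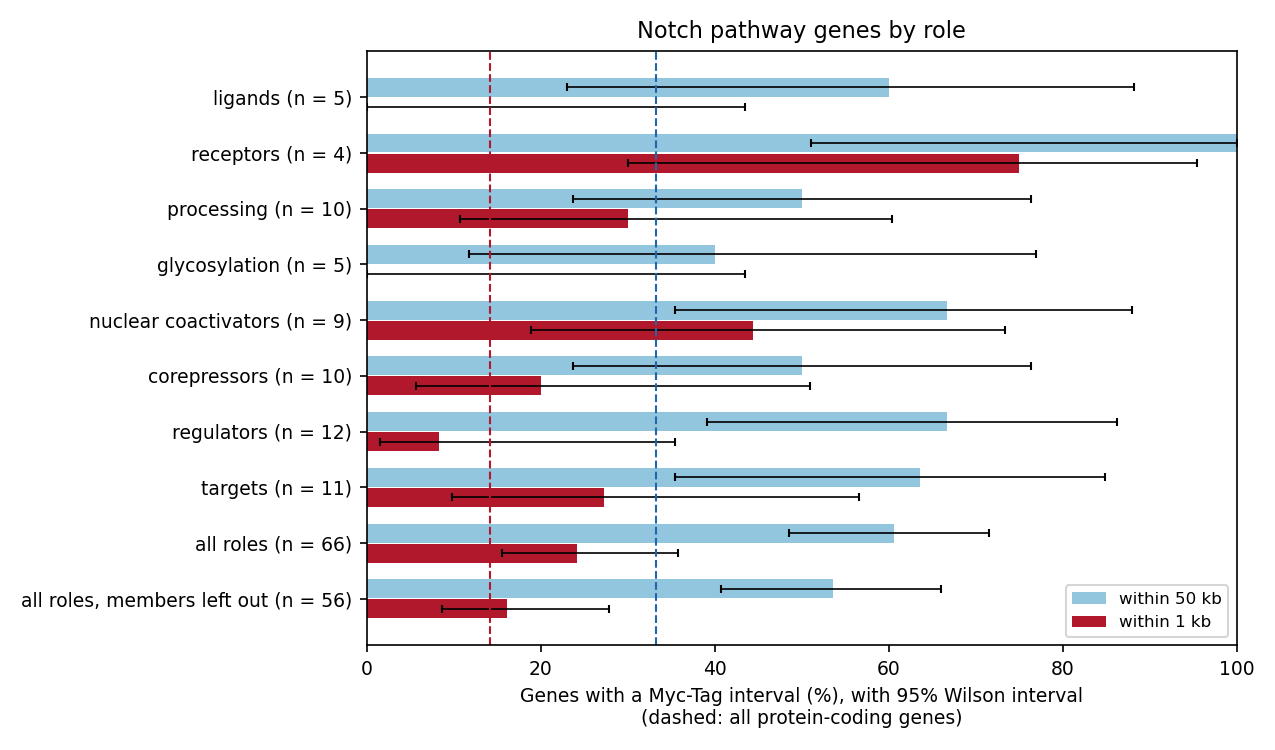
Share of Notch pathway genes with a Myc-Tag interval within 50 and 1 kb, by role, beside the share over all protein-coding genes. Within 1 kb, 0 of 5 ligands, 0 of 5 glycosylation genes and 3 of 4 receptors had an interval, against 14.2% of all coding genes. The Wilson upper limit for 0 of 5 is 43.45%, and 3 of 5 ligands had an interval within 50 kb. Roles were not matched for gene length, and no difference between them was tested.

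Beside the members, intervals within 1 kb were called at further genes of the list. Adam17, a protease related to Adam10, had one of height 11 with its summit 192 bp downstream of the start. Among the coactivators, Maml3, a Mastermind gene like Maml1, had 2 intervals. The taller, with height 24, had its summit 78 bp downstream of the start. Ep300, a histone acetyltransferase, had a summit of height 18 that lay 289 bp outside the gene, and Snw1 had one of height 12. Of the corepressors, Hdac2, a histone deacetylase, had heights of 18 and 14. The 1 regulator was Fbxw7, which helps mark the Notch intracellular domain for degradation, with height 16. Tcf7, a transcription factor of early T cells and a Notch target, had an interval of height 11 inside the gene. Il2ra, the interleukin-2 receptor alpha chain, had one of height 16 that lay 6653 bp upstream. Hes5, Hey1, Hey2 and Myc, also Notch targets, had none within 50 kb, nor did the ligand genes Dll1 and Jag1. These 6 genes were chosen after their values were seen.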

How the data were processed

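ChIP-seq peak calls from 1 Myc-Tag ChIP library and 1 input library of an Lck-Dlx5 T-cell lymphoma were used. Active Motif made the libraries and calls, with an Illumina GA II and peak calling by MACS p-value. The submitters' processing notes name BWA and mm9. The coordinates were read as mm10 (GRCm38), the build written on the browser view of the study, on which 51.9% of summits lay within 1 kb of a coding start. The methods name an IgG control and the table holds an input track. Which of them served in peak calling, and the calling threshold, are not given in the sources used here, and read depth is unknown.

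The authors deposited 5 tracks in 1 table, holding summits and intervals of each library and active regions. The deposited score of a summit is its height, in whole numbers of unstated normalization. The positions of all 19 summits were multiples of 16 bp and are thus not exact to the base. The intervals were printed with starts counted from 1.

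Each summit was joined to its interval, and intervals to RefSeq genes of GRCm38.p6 (21887 protein-coding genes), with at least 1 bp of overlap, in Python 3.11.15 with numpy 2.4.6, pandas 2.3.3 and scipy 1.17.1. The counting was tested on simulated data. Exons and introns were not used here. Starts and promoter sequence came from the RefSeq windows (10 windows of 9 members). Named genes were all members, the genes nearest to or overlapped by their intervals, and the pathway genes with an interval. Not every such pathway gene is reported here by name, and 6 pathway genes without an interval were named after their values were seen. Members, lists and windows were chosen with earlier results of these data known. With 1 library per group, no test was run. Alternatives were the distance, height, overlap, input calls, merging, nearest gene and motif.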

Additional observations from a re-analysis of the deposited data

How the results depend on the processing

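No paired analysis was possible because no result came from a test and each group held only 1 library. Of 28 alternatives, 14 left a value within 1.5 times of its main value and 14 did not. With 10 kb in place of 50 kb, the intervals at members went from 19 to 9, the pathway genes with an interval from 40 to 20 and the share of coding genes from 33.3% to 19.0%. With 1 kb these were 7, 16 and 14.2%. Taking only intervals whose nearest coding gene was the member left 7. At heights of at least the 75th percentile, 19, there were 2 members (Maml1 and Dtx1, both through intervals at neighboring genes), 2 intervals, 11 pathway genes and 12.3% of coding genes. At heights of at least the median, 16, there were 12 intervals and 20.2% of coding genes, and 8 members were left, without Hes1 and Notch3. Of these 8, only Notch1, Notch2, Rbpj and Nrarp kept an interval of their own, and Notch4, Adam10, Maml1 and Dtx1 counted through intervals farther away. With ATTA in place of TAATT, 4 members held the motif in place of 1. These changes follow from fewer intervals or smaller windows and, for the motif, from its shorter length.

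Without replicates or read depth, a height or width cannot be set against its error, and a gene without an interval is only below the calling threshold. Whether an interval acts on the member, on the nearer gene or on neither was not measured.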
